A study of Mus musculus with 18 samples.

Results

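Isoform usage was compared among primary mouse astrocyte, microglia and neuron cultures. Isoform usage is the share of a gene's reads that each of its transcript isoforms takes, so it describes which form of a gene a culture carried and not how much of the gene there was. A gene entered the comparison where at least 2 of its isoforms were expressed and at least 2 of the cell types carried 5 or more reads of it in each of their 3 libraries. An isoform counted as expressed with 10 or more reads over the libraries of those cell types, reads in at least 2 libraries and a mean share of at least 5% in 1 cell type. These rules left 2622 of the 17714 gene labels of the deposited table and 7181 of its 114425 isoforms. Of these genes, 1524 had 2 expressed isoforms and 1098 had 3 or more. All 3 cell types were measured in 1529 genes, astrocytes and neurons only in 913, astrocytes and microglia only in 113, and microglia and neurons only in 67.

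The series read full-length polyadenylated transcripts by PacBio long-read sequencing in cells of each culture and in the small extracellular vesicles (sEVs) that they released, with cell type-specific packaging of mRNA as its question. Each of the 3 cell groups held 3 libraries, labelled as primary mouse brain cultures; the labels give no strain, age, genotype or treatment. The cell libraries were sequenced together in 1 pool and held 434298 to 683381 reads each. The labels do not say whether replicates came from separate cultures, so every p-value below measures only the spread between these libraries.

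One gene can give rise to several mRNAs through alternative promoters, alternative splicing and alternative polyadenylation sites. Neurons are known for extensive cell type-specific splicing, which is controlled by RNA-binding proteins such as PTBP2, NOVA, RBFOX and the SR and hnRNP families. Switches of this kind alter protein domains, binding surfaces and untranslated regions without any need for the gene's total output to differ. Here isoforms are known by a number, a structural category and a subcategory only. A full-splice match has all splice junctions of an annotated transcript, an incomplete-splice match has a part of them, an NIC isoform (its splice sites are in the annotation catalogue) joins known sites in a way that is not annotated, and an NNC isoform (not in the catalogue) uses at least 1 site that is not annotated. The subcategory of a full-splice match says whether its ends also match the reference or lie elsewhere. The exons and ends of an isoform were not analysed here, so a switch between 2 full-splice matches cannot be assigned to a named exon, and no isoform sequence is shown.

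The cultures carried the markers of their labels, with limits that bear on the shares. The 12 microglia markers summed to 16182 RPM (reads scaled to a common library total) in microglia libraries and to 5.68 in astrocyte libraries, and all 12 were at 0 in neuron libraries. The 12 neuron markers summed to 7852 RPM in neurons, 379 in astrocytes and 5.48 in microglia. The 12 astrocyte markers summed to 35295 RPM in astrocytes and to 4946 to 5889 RPM in the neuron libraries, where all 12 were read. Markers of the oligodendrocyte lineage summed to 4341 to 9455 RPM in astrocyte libraries, 1130 in neurons and 99.4 in microglia. The part of these other cells in any share below was not tested. A further feature of the table concerns replicates: in 1172 of the 2622 genes an isoform took at least 20% of the gene's reads in 1 library and had 0 reads in both other libraries of its group. Such genes numbered 283 to 322 per astrocyte library, 158 to 165 per microglia library and 343 to 391 per neuron library, and they include 29 of the 152 genes called below. No isoform has a value of 1 anywhere, the lowest value other than 0 being 2, which means that lone reads of an isoform may be listed as 0. Among the expressed isoforms of the genes named below there were 119 cases of an isoform with no read in a measured cell type, and a count of 0 there allows shares of up to 0.021% to 10.3%, with a median of 1.33%. These limits take a listed 0 as no read and cover counting error only. Where lone reads were listed as 0, the limits given here and below are too low.

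Isoform usage differed among the cell types in 152 genes, 5.8% of the 2622 tested (edgeR's quasi-likelihood test on the reads of an isoform against the gene's other reads, joint over the cell types, Simes combination per gene, Benjamini-Hochberg adjusted p under 0.05). An unadjusted p under 0.05 was reached by 667 genes. By where they were measured, 128 of the 1529 genes read in all 3 types were called (8.37%), 21 of the 913 in astrocytes and neurons (2.3%), 1 of the 113 in astrocytes and microglia (0.885%) and 2 of the 67 in microglia and neurons (2.99%). Each of these sets had its own fit, without the libraries of an unmeasured cell type. The differences in the called genes ran from small shifts to complete exchanges. Of the 152 genes 35 had a largest difference of 75 points or more, 52 of 50 to 75, 44 of 25 to 50 and 21 below 25. The largest difference between 2 cell types in the mean share of an isoform had a median of 59.5 percentage points in the called genes, against 21.5 points over all genes tested, and ran from 6.04 to 100 points. In 33 of the 152 genes the isoform with the largest difference had no read in the cell type where it was low, and in 58 the gene's top 2 isoforms were both read in every measured cell type. Gene level differed less than 2-fold among the cell types in 45 of the 152. The median fold between the highest and lowest type was 2.82 in the called genes, against 2.21 over all genes tested. The counts of 33, 58 and 45 were not made over all genes tested. The genes closest to the threshold included Srsf5, Tspan17, Wdr74, Acsl6, Eif2s3y and Mt1, tied at an adjusted p of 0.0497 on one side. On the other side they included Spp1, Tmem185a and Rpn2 at 0.0501, by the same test.

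The count of called genes followed read depth and depended on every library. Among genes with 47 to 175 reads over the 9 libraries 3 were called (0.455%), among those with 176 to 312 reads 8 (1.23%), with 313 to 600 reads 44 (6.73%) and with 601 to 29249 reads 97 (14.8%). A gene that was not called was therefore not shown to share its isoform usage among the cell types. The joint count was 64, 41 and 52 without astrocyte library 1, 2 and 3, it was 65, 68 and 54 without the microglia libraries in the same order, and 46, 36 and 40 without the neuron libraries. It was 7 with no filter on isoforms, 29 with the replicate number as a block and 718 with DESeq2. Of the 49 called genes that the naming rule picks, 13 kept the call in all 9 fits that leave out 1 library: Atp5d, Atp6v1h, Atpif1, Cadm1, Capzb, H3f3b, Mapre2, Myl6, Pde4b, Pkm, Pmp22, Tecr and Tpm3. The other genes are given with the number of those 9 fits that called them. With no filter on isoforms 43 of the 49 genes lost the call. Of the 13 genes above, Atp5d, H3f3b, Pde4b, Pkm and Tpm3 kept it there. With the replicate number as a block 12 of the 49 kept it. The direction of the largest share difference stayed the same in every alternative that gave a value for a called gene of that rule. This was largely fixed in advance. Alternatives that changed only the filter, the block or the model left the shares as they were. Many of the isoforms were also picked for shares without overlap, which leaving out 1 library cannot reverse.

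**Figure D1:**
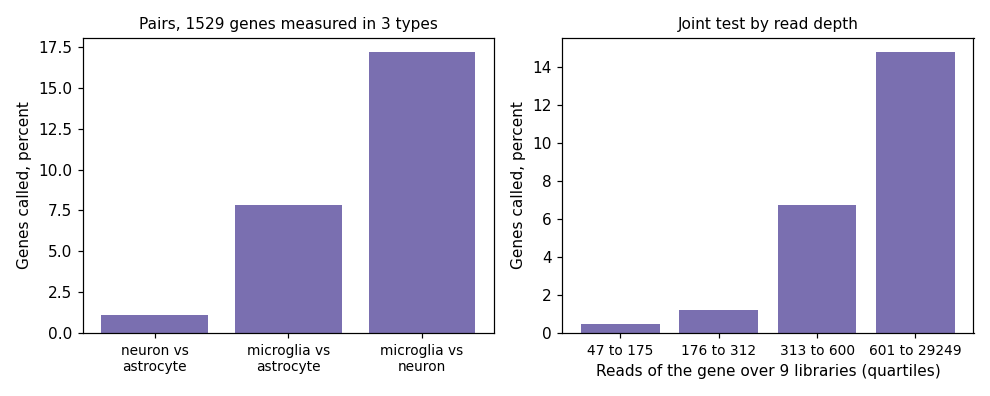
Percent of genes with a different isoform usage, for each pair of cell types over the 1529 genes measured in all 3 (left) and for the joint test by quartile of the gene's reads over 9 libraries (right). The bars rise from 1.11% for neurons against astrocytes to 17.2% for microglia against neurons, and from 0.455% in the quartile of lowest depth to 14.8% in that of highest depth.

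Called genes were most numerous in the pairs that include microglia. Microglia against neurons gave 272 genes of 1596 (17%), microglia against astrocytes 123 of 1642 (7.49%) and neurons against astrocytes 20 of 2442 (0.819%), each by edgeR's quasi-likelihood test at an adjusted p of 0.05. Over the same 1529 genes measured in all 3 cell types the counts were 263, 120 and 17. The difference between these counts was not tested. In the same order, 119, 90 and 17 of these genes were also called in the joint test. Most calls for microglia against neurons were therefore not joint calls. The astrocyte markers in the neuron libraries, 4946 to 5889 RPM, stand beside the low count for neurons against astrocytes, and their part in it was not tested. The count of 20 was 1 without any 1 of the 3 astrocyte libraries or without neuron library 2, it was 2 without neuron library 1, 3 without neuron library 3, and 18, 9 and 12 without microglia library 1, 2 and 3.

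In 90 called genes (3.43% of those tested) the leading isoform, the one with the highest mean share, was a different one in 2 cell types, with no overlap between libraries. Such a switch without overlap was present in 321 genes (12.2%) whether called or not, and the leading isoform by mean share differed in 728 genes (27.8%). At least 1 isoform with shares that did not overlap between 2 cell types was found in 1561 genes (59.5%). Of the 90 switches, 75 were in genes measured in all 3 cell types. Microglia were the type with another leading isoform in 33 of these, neurons in 27, astrocytes in 5, and in 10 each type had its own. By structure, 60 of the 90 switches were between full-splice matches and 15 between a full-splice match and an NIC isoform. A further 6 involved an NNC isoform beside a full-splice match. These counts take every leading isoform of a switch. By another measure, that of 1 isoform per gene, the isoform with the largest difference was a full-splice match in 86.2% of called genes. In all genes tested it was one in 78%. The splits by cell type and by structure were not counted over the 321 genes, so no background share stands beside them.

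**Figure D2:**
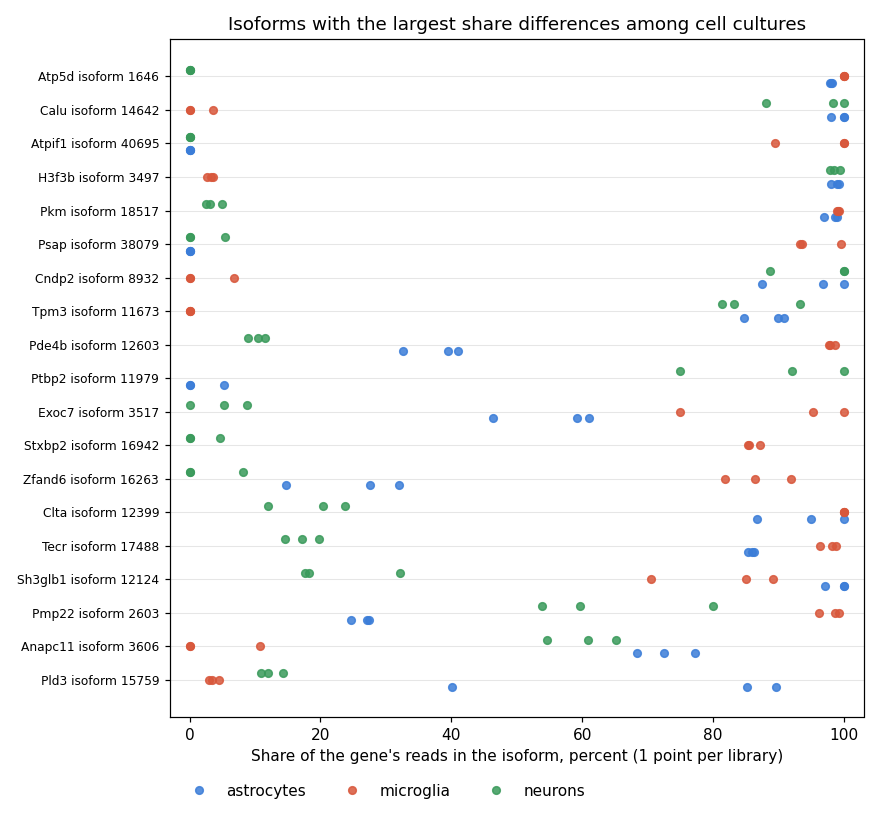
Share of the gene's reads in 1 isoform per gene (horizontal axis, percent), with 1 point for each library of astrocytes, microglia and neurons; the 19 genes are those with the largest differences under the naming rule. Points of a cell type lie close together in most genes. The gap between the types of highest and lowest mean was a condition of the rule, which admitted only shares without overlap there. For Pkm, neurons lie at 2.54 to 5.03% and all other libraries at 97% or more. Pld3 has an astrocyte library at 40.1% and the other astrocyte libraries at 85.2% and 89.6%.

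Energy metabolism held the gene with the smallest adjusted p of all, Pkm. Pkm encodes pyruvate kinase, which makes pyruvate and ATP in the last step of glycolysis, and a choice between mutually exclusive exons is known to give it a form typical of neurons and muscle and another typical of glia and dividing cells. Pkm isoform 18517, a full-splice match, took 97%, 98.9% and 98.6% of the gene's reads in the astrocyte libraries, 99%, 99.3% and 99% in microglia and 5.03%, 2.54% and 3.16% in neurons. Isoform 59567, a full-splice match with another 3′ end, took 92.6%, 97.2% and 93.5% in neurons. It had no read in astrocytes (0 of 2814 Pkm reads, which allows a share of up to 0.107%) or in microglia (0 of 4442, up to 0.0675%). The exchange was near complete and no neuron library came near a glial one. Isoform 18517 was 95.5 points higher in microglia than in neurons (SE 0.757), with an adjusted p of 0.000679 in the joint edgeR test, 0.000453 for neurons against astrocytes and 0.000167 for microglia against neurons. Which exon each number carries is not given by the columns used.

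Tecr, the enoyl-CoA reductase that completes each cycle of very-long-chain fatty acid elongation, split in the same direction without being all or none. Its isoform 17488 took 85.3%, 85.9% and 86.3% in astrocytes, 98.2%, 98.8% and 96.3% in microglia and 17.2%, 14.6% and 19.8% in neurons. Isoform 17490 took 78.4%, 83.2% and 74.7% in neurons and between 1.18% and 12.5% in the glial libraries. Both are full-splice matches with reference ends, both were read in all 9 libraries, and the order microglia, astrocytes, neurons held without overlap. Tecr was called jointly (edgeR adjusted p = 0.00187) and in each of the 3 pairs, with adjusted p-values of 0.0185 for neurons against astrocytes, 0.0348 for microglia against astrocytes and 0.000354 for microglia against neurons.

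Atp5d, Atpif1 and Atp5c1 belong to the mitochondrial ATP synthase or act on it. Atp5d encodes the delta subunit in the rotor stalk. Its isoform 1646 took 97.8%, 98% and 98.1% in astrocytes and 100% in each microglia library, and had no read in neurons (0 of 422, up to 0.711%). In neurons isoform 51705, an NIC structure, took 98.6% and 98.4% in libraries 1 and 3 but 6.25% in library 2, where isoform 60826 held 138 of 160 reads and was read in no other neuron library. The absence of isoform 1646 was common to the neuron libraries while the isoform in its place was not (joint edgeR adjusted p = 0.0102). Atpif1 encodes the inhibitor that keeps the synthase from running in reverse. Its isoform 40695, with an unannotated exon, took 100%, 100% and 89.5% in microglia and had no read in astrocytes (0 of 137, up to 2.19%) or neurons (0 of 390, up to 0.769%), where isoform 12983 led with 87.7% ± 4.24 and 90.5% ± 2.94 (SD, n = 3). The joint adjusted p was 0.0102, and microglia libraries carried only 22 to 38 Atpif1 reads each. Atp5c1, the gamma subunit, differed less: isoform 10942 took 31.3% ± 6.8 in astrocytes, 6.53% ± 3.25 in microglia and 5.14% ± 1.01 in neurons (edgeR adjusted p = 0.0408, called in 1 of the 9 fits). The synthase genes Atp5g1, Atp5h, Atp5j, Atp5j2 and Atp5l were tested and not called, with largest differences of 11.8, 12.2, 8.43, 10.8 and 11.2 points; they were looked up after these values were seen.

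Of the 25 genes listed for energy metabolism 11 were tested and 5 called (45.5%, against 5.8% of all genes tested): Pkm, Ldhb, Atp5c1, Ndufv3 and Dnm1l. The median over the list's 11 genes of the largest share difference was 35.4 points, against 21.5 over all genes tested. The gene lists here and below were chosen with earlier results of these data known. Their shares were not tested and not matched for read depth. In the quartile of highest depth 14.8% of all genes tested were called. Ldhb, a subunit of lactate dehydrogenase, was called on a small difference. Its NIC isoform 15443 took 0.575% ± 0.154 in astrocytes, 6.86% ± 3.02 in microglia and 6.5% ± 1.99 in neurons (edgeR adjusted p = 0.0259, 1 of the 9 fits). Ndufv3, an accessory subunit of complex I, was led by isoform 7756 in astrocytes (87.1% ± 1.29) and by isoform 7755 in neurons (65.6% ± 6.53), both full-splice matches with reference ends (adjusted p = 0.0418, 0 of the 9 fits). Dnm1l encodes the GTPase that divides mitochondria. Its isoform 6808 took 33.3%, 68% and 42.1% in microglia, 7.14% to 10.5% in astrocytes and 0% in all neuron libraries (adjusted p = 0.0464, 0 of the 9 fits).

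**Figure D3:**
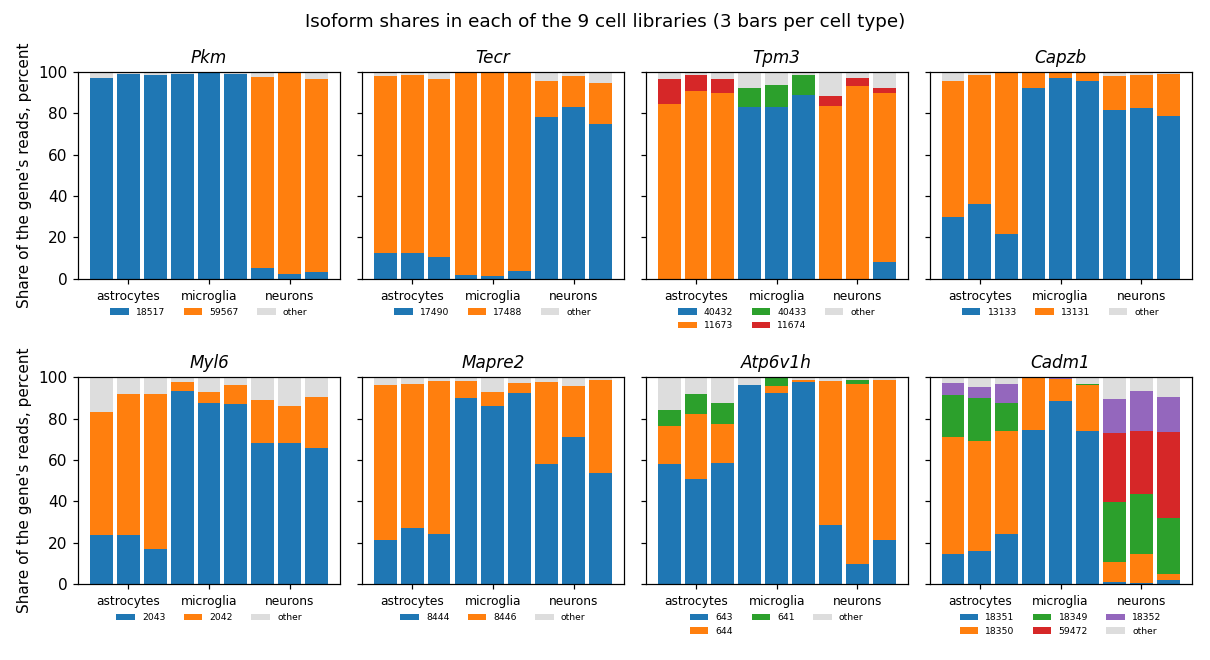
Share of each expressed isoform in the reads of 8 genes, in percent, with 1 bar per library in the order of replicates 1 to 3 for astrocytes, microglia and neurons; grey is the sum of isoforms below the expression rule. Pkm turns over between neurons and both glial cultures, Tpm3 between microglia and the others, and Capzb, Myl6 and Mapre2 have their largest gap between astrocytes and microglia.

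Of 46 listed actin filament genes 23 were tested and 5 were called (21.7%, against 5.8% of all genes tested), with a median difference of 47.5 points over the 23, against 21.5. Among the 5 the exchange was near complete in Tpm3 and partial in Capzb, Myl6, Tmod3 and Tpm1. Tpm3 encodes a tropomyosin, a coiled-coil protein that lies along actin filaments and whose gene is known for alternative promoters and exons. Tpm3 isoform 11673, an NIC structure, took 84.7%, 90.9% and 90% in astrocytes and 83.3%, 93.3% and 81.4% in neurons, and had no read in microglia (0 of 1656, up to 0.181%). Microglia used isoform 40432 instead, at 82.9%, 83.2% and 88.8%. That isoform had no read in astrocytes (0 of 624, up to 0.481%) and in neuron libraries 1 and 2, and took 8.33% in neuron library 3. Tpm3 was called jointly (edgeR adjusted p = 0.00498) and for microglia against astrocytes (0.00167) and neurons (0.00179).

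Capzb and Myl6 shared another arrangement, in which astrocytes were the outlying type and neurons lay between. Capzb encodes the beta subunit of the protein that caps the fast-growing end of actin filaments. Capzb isoform 13133 took 29.8%, 36.3% and 21.6% in astrocytes, 92.3%, 96.8% and 95.7% in microglia and 81.8%, 82.6% and 78.5% in neurons. Isoform 13131 held most of the remainder, at 68.6% ± 8.06, 5.07% ± 2.34 and 17.5% ± 2.39 (SD, n = 3) in the same order. Both are full-splice matches with 3′ ends other than the reference, and no libraries of different types overlapped. The adjusted p by edgeR was 0.00784 jointly, 0.00216 for microglia against astrocytes, 0.0401 for neurons against astrocytes and 0.0423 for microglia against neurons.

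Myl6 encodes the essential light chain of non-muscle and smooth muscle myosin, and a short exon near its end is known to be used differently between tissues. Myl6 isoform 2043 took 23.6%, 23.6% and 17.1% in astrocytes, 93.1%, 87.3% and 87.2% in microglia and 68%, 68.1% and 65.5% in neurons, and isoform 2042 took 67.5% ± 7.44, 6.32% ± 2.56 and 21.2% ± 3.31. The 3 types did not overlap for either isoform, and both are full-splice matches with reference ends. The joint adjusted p by edgeR was 0.00886, with 0.00267 for microglia against astrocytes, 0.042 for microglia against neurons and 0.0516 for neurons against astrocytes. Tmod3, a tropomodulin that caps the slow-growing end, set neurons apart: isoform 18680 took 96.4% ± 3.29 in astrocytes, 95.2% ± 2.95 in microglia and 47.6% ± 3.24 in neurons, where isoform 28714 took 44.8% ± 5.54 (adjusted p = 0.0259, 3 of the 9 fits). Tpm1, a second tropomyosin gene, was led by isoform 18611 in astrocytes (48.2% ± 2.36), which stood at 0.654% ± 1.13 in microglia and 14.1% ± 8.12 in neurons, and by isoform 59602 in neurons (45.9% ± 15.2), with no reads elsewhere (adjusted p = 0.0468, 0 of the 9 fits).

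Among 35 listed microtubule and motor genes 17 were tested and 2 were called (11.8%, against 5.8% of all genes tested). Mapre2 encodes EB2, an end-binding protein on growing microtubules. Its isoform 8446, a full-splice match with another 5′ end, took 74.9%, 69.9% and 74.2% in astrocytes, 7.92%, 7.09% and 4.85% in microglia and 39.4%, 24.7% and 45.3% in neurons. Isoform 8444 took the rest almost entirely, with 24.1% ± 2.81, 89.3% ± 3.21 and 60.9% ± 9.14. The order astrocytes, neurons, microglia for isoform 8446 was free of overlap (joint edgeR adjusted p = 0.0102; 0.00267 for microglia against astrocytes and 0.019 for microglia against neurons; 0.0959 for neurons against astrocytes). Dync1i2, an intermediate chain of the dynein motor, was led by isoform 9876 in astrocytes (72.1% ± 9.12), isoform 9874 in microglia (57.8% ± 5.62) and isoform 55709 in neurons (39.1% ± 12.4), the last with no reads in glia (adjusted p = 0.0405, 0 of the 9 fits).

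Clathrin light chains showed isoforms read in neurons alone. The light chains decorate the clathrin coat of endocytic vesicles, and both genes are known for short exons included in neurons. Clta isoform 12399 took 100%, 86.7% and 95% in astrocytes, 100% in every microglia library and 20.4%, 12% and 23.7% in neurons. Neurons carried Clta isoform 56730 at 50%, 55.4% and 40.7%, with no read in astrocytes (0 of 121, up to 2.48%) or microglia (0 of 231, up to 1.3%), and isoform 25708 at 26.3% ± 2.38 (edgeR adjusted p = 0.0322, 3 of the 9 fits). Cltb had the same arrangement in an even split. Isoform 4704 took 100% in all astrocyte libraries, 96.8% ± 5.5 in microglia and 49%, 48.4% and 45.3% in neurons, where isoform 53141 took 51%, 51.6% and 54.7% (adjusted p = 0.0226, 6 of the 9 fits). Microglia libraries held only 12 to 21 Cltb reads. Sh3glb1, endophilin B1, a membrane-curving protein, was the third called gene of 14 tested among 32 listed for clathrin and endocytosis (21.4%, against 5.8% of all genes tested): isoform 12124 took 99% ± 1.7 in astrocytes, 81.6% ± 9.78 in microglia and 22.7% ± 8.22 in neurons (adjusted p = 0.0293, 2 of the 9 fits). In neuron library 3 isoform 71937 held 25 of 34 Sh3glb1 reads, and it was read in no other neuron library. The median difference of the clathrin and endocytosis list was 52.9 points, against 21.5 over all genes tested.

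Membrane traffic genes outside that list followed. Exoc7, a subunit of the exocyst that tethers secretory vesicles, was led by isoform 3517 in microglia (100%, 75% and 95.3%) and astrocytes (61%, 59.2% and 46.3%) and by isoform 3519 in neurons (81.7% ± 7.62), where isoform 3517 stood at 0%, 8.82% and 5.26% (edgeR adjusted p = 0.0226, 3 of the 9 fits). Stxbp2, a syntaxin-binding protein of granule release, was measured in microglia and neurons only. Its isoform 16942 took 85.4%, 85.6% and 87.2% in microglia and 4.62%, 0% and 0% in neurons, where the leading isoform 58822 was annotated with partial intron retention (51.6% ± 11.3; adjusted p = 0.0413, 4 of the 9 fits). Atp6v1h, subunit H of the proton pump that acidifies vesicles and lysosomes, was the called gene among 9 tested of 32 listed for synapse and vesicle release (11.1%, against 5.8% of all genes tested). Isoform 644 took 69.6%, 86.9% and 77.4% in neurons, 18.3%, 31.5% and 18.6% in astrocytes and 0%, 3.45% and 1.29% in microglia, while isoform 643 took 95.2% ± 2.68 in microglia and 55.8% ± 4.3 in astrocytes. All 3 types were apart (joint edgeR adjusted p = 0.0125; 0.00345 for microglia against neurons and 0.0275 for microglia against astrocytes; 0.129 for neurons against astrocytes).

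Cell adhesion genes carried some of the most divided isoform sets. Cadm1, an immunoglobulin-type adhesion protein of synapses and glia, had 5 expressed isoforms with a different leader in each culture. Isoform 18350 led in astrocytes with 56.2%, 53.3% and 49.7%. Isoform 18351 led in microglia with 74.6%, 88.6% and 73.8%, against 18.3% ± 5.06 in astrocytes and 1.19% ± 0.705 in neurons. Isoform 59472, an NIC structure, led in neurons with 33.4%, 30.2% and 41.5% and had no read among 1197 Cadm1 reads of astrocytes (up to 0.251%) and 1673 of microglia (up to 0.179%). Cadm1 was called jointly (edgeR adjusted p = 0.00813) and in every pair (0.0486 for neurons against astrocytes, 0.00995 for microglia against astrocytes, 0.00187 for microglia against neurons). It was 1 of 4 genes called among 16 tested of 32 listed ankyrin, spectrin and adhesion genes (25%, against 5.8% of all genes tested), whose median difference was 49.3 points, against 21.5.

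Cd47 and Chl1, also called, set neurons apart. Cd47, the ligand that restrains phagocytosis through SIRPα, carried isoform 54297 at 61.9%, 72.2% and 58.8% in neurons and at 0% in all glial libraries, and isoform 7150 at 70.3% ± 3.19 in astrocytes (edgeR adjusted p = 0.0329, 2 of the 9 fits). In microglia isoform 7150 varied widely (44.3% ± 38.5). Chl1, an L1-family adhesion protein, carried isoform 57962 at 84.3%, 73.4% and 85.7% in neurons and 0% in astrocytes (edgeR adjusted p = 0.0497). The call was kept in 0 of the 8 fits without 1 library that gave a value for Chl1. Astrocytes held as few as 10 Chl1 reads in a library.

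Signalling genes were called in 3 of 14 tested cases from a list of 30 (21.4%, against 5.8% of all genes tested). Pde4b, a cAMP-degrading phosphodiesterase with several alternative promoters and outside that list, had one of the smallest adjusted p-values (0.00108 jointly by edgeR, 0.00167 for microglia against astrocytes and 0.000221 for microglia against neurons). Isoform 12603 took 98.6%, 97.9% and 97.8% in microglia, 41.1%, 39.5% and 32.7% in astrocytes and 10.5%, 8.89% and 11.5% in neurons. Astrocytes shared their reads between isoforms 12602 (45.4% ± 1.12) and 12603, and neurons were led by isoform 12604 (43.1% ± 15.5). Cdc42, a small GTPase that shapes the actin cytoskeleton and has a brain form with another final exon, showed a neuronal split: isoform 13095 took 43.1%, 48.1% and 35.8% in neurons and at most 2.99% in any glial library. Isoform 13094 led everywhere, with 95.4% ± 2.48 in astrocytes, 97.3% ± 2.82 in microglia and 52.5% ± 3.19 in neurons (adjusted p = 0.0162, 6 of the 9 fits).

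Gnas, the stimulatory G protein alpha subunit from an imprinted locus with several promoters, carried isoform 10770 at 44%, 48.8% and 50.7% in astrocytes, 0% in microglia and at most 1.1% in neurons (edgeR adjusted p = 0.0322, 3 of the 9 fits). Microglia carried isoform 39989 (48.3% ± 22.9) with no reads elsewhere. The replicates were far apart in neurons, where isoform 10771 took 12.1%, 61.9% and 93.3%. Mapk10, the neuronal JNK kinase, carried isoform 13912, annotated with partial intron retention, at 42.9%, 58.8% and 75% in astrocytes and 0% in neurons, from as few as 7 astrocyte reads in a library (adjusted p = 0.046, 0 of the 9 fits).

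Genes of the nervous system and glia were called in 7 of 17 tested cases from a list of 28: Rtn3, Gpm6b, Aplp2, App, Rtn1, Gpm6a and Sirt2. That is 41.2%, against 5.8% of all genes tested, and the median difference over the 17 was 31.1 points, against 21.5. Gpm6b, a membrane glycoprotein of neurons and oligodendrocytes, was measured in astrocytes and neurons, with at least 735 reads in a library. Isoforms 19810 and 19811 took 39.6% ± 3.47 and 30% ± 7.16 in astrocytes and 5.57% ± 6.69 and 0.607% ± 0.374 in neurons. Isoforms 19812, 19813 and 19820 took 37.4% ± 5.61, 29.8% ± 6.18 and 18.1% ± 3.87 in neurons and 4.78% ± 1.78, 1.95% ± 0.582 and 0.424% ± 0.292 in astrocytes. All are full-splice matches, and the exchange ran through 5 isoforms at once (edgeR adjusted p = 0.0125, 8 of the 9 fits; lost without astrocyte library 2). Oligodendrocyte markers were 4341 to 9455 RPM in the astrocyte libraries, and their part in this gene's shares was not tested.

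Rtn3, a reticulon that shapes the endoplasmic reticulum, kept isoform 9177 in the lead in all types (74.6% ± 1.04 in astrocytes, 96.5% ± 4.45 in microglia, 64.9% ± 14.1 in neurons), and isoform 9176 separated astrocytes (23% ± 3.02) from neurons (1.77% ± 0.262) and microglia (0%; edgeR adjusted p = 0.0125, 8 of the 9 fits, lost without astrocyte library 2). Aplp2 and App, related amyloid precursor genes, were both called for microglia against each other type. Aplp2 isoform 18196 took 59.3%, 47.5% and 53.3% in astrocytes, 72.3%, 58.8% and 80% in neurons and 9.85%, 1.37% and 4.06% in microglia, which used isoform 18198 (71.8% ± 5.31; adjusted p = 0.0186, 6 of the 9 fits). App encodes the amyloid precursor protein, whose gene is known for exons, among them that of a protease inhibitor domain, skipped in neurons. App isoforms 39340 and 39341 took 33.8% ± 7.95 and 31.4% ± 3.6 in microglia and had no reads in astrocytes or neurons. Isoform 7239 took 3.92%, 2.56% and 0% in microglia, but its replicates disagreed elsewhere, with 36.8%, 92% and 33.7% in astrocytes and 44.8%, 44.1% and 93.2% in neurons (adjusted p = 0.0201, 6 of the 9 fits).

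H3f3b and Psap set microglia apart. H3f3b encodes the replication-independent histone H3.3. Its isoform 3497 took 98.9%, 98.1% and 99.3% in astrocytes, 97.9%, 99.5% and 98.6% in neurons and 3.52%, 2.72% and 3.34% in microglia. Microglia libraries 1 and 2 carried isoform 38595 in its place (95.5% and 95.7%), whereas library 3 carried it at 22.2% and held 1299 of its 1767 reads in isoform 47394, which had no read in libraries 1 and 2. The loss of isoform 3497 was common to all microglia libraries (joint edgeR adjusted p = 0.000719; 0.00044 against astrocytes and 0.000221 against neurons) and the structure in its place was not. H3f3b was the called gene among 9 tested of 29 listed for chromatin and histone variants (11.1%, against 5.8% of all genes tested).

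Psap encodes prosaposin, the precursor of the saposins that help lysosomal enzymes degrade sphingolipids, and has a short alternatively spliced exon. Its isoform 38079 took 99.6%, 93.6% and 93.2% in microglia, 0% in astrocytes (0 of 9074 reads, up to 0.0331%) and 0%, 5.39% and 0% in neurons. Isoform 1448 took 80.3%, 87% and 85.8% in neurons and 89.3% and 95.3% in astrocyte libraries 2 and 3, with no read among 14281 in microglia (up to 0.021%). Both are full-splice matches with reference ends. Astrocyte library 1 stood apart, with 21.7% in isoform 1448 and 2297 of its 2949 Psap reads in isoform 1454, which had none in the other astrocyte libraries (edgeR adjusted p = 0.0226, 2 of the 9 fits). Lamp2, a lysosomal membrane protein with alternative last exons, was led by isoform 19314 in microglia (70.9% ± 2.96) and astrocytes (48.2% ± 3.62) and stood at 34.6% ± 5.12 in neurons, and its isoform 19310 took 19.3% ± 4.53 in neurons and under 1% in glia by the mean (adjusted p = 0.0322, 1 of the 9 fits). These were the 2 called of 11 tested among 32 listed microglia and lysosome genes (18.2%, against 5.8% of all genes tested), whose median difference of 10.7 points lay below the 21.5 of all genes tested.

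Other genes named by size of the difference were mostly marked by microglia. Calu, a calcium-binding protein of the secretory pathway, carried isoform 14642 at 100%, 100% and 98.1% in astrocytes, 100%, 88% and 98.4% in neurons and 0%, 3.64% and 0% in microglia, which carried isoform 41136 at 100%, 96.4% and 97.5% (edgeR adjusted p = 0.0161, 7 of the 9 fits, lost without microglia library 2 or 3). Cndp2, a cytosolic dipeptidase, exchanged isoform 8932 (94.8% ± 6.49 in astrocytes and 96.2% ± 6.54 in neurons) for isoform 39744 in microglia (92.2% ± 6.49; adjusted p = 0.0439, 0 of the 9 fits). Zfand6, a zinc finger protein of the A20 type, carried isoform 16263 at 86.7% ± 5.04 in microglia, 24.8% ± 8.98 in astrocytes and 2.72% ± 4.71 in neurons (adjusted p = 0.0468, 2 of the 9 fits). Anapc11, the RING subunit of the anaphase-promoting complex, carried isoform 3606 at 77.3%, 72.6% and 68.3% in astrocytes, 65.2%, 54.7% and 60.9% in neurons and 0%, 0% and 10.7% in microglia (adjusted p = 0.0357, 1 of the 9 fits).

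For Pmp22 and Pld3 the naming rule picked isoforms whose astrocyte shares lay below or above those of both other types. Pmp22 is a tetraspan membrane protein best known from peripheral myelin. Its isoform 2603 took 27.1%, 24.7% and 27.4% in astrocytes, 99.2%, 98.6% and 96.3% in microglia and 80%, 53.8% and 59.6% in neurons, so the types did not overlap (joint edgeR adjusted p = 0.0136; 0.00533 for microglia against astrocytes, 0.0151 for microglia against neurons and 0.311 for neurons against astrocytes). The other astrocyte isoforms were uneven between replicates, as in isoform 2606 (38.1% ± 33.8). Pld3, a lysosomal member of the phospholipase D family, carried isoform 15759 at 85.2%, 89.6% and 40.1% in astrocytes and at most 14.3% elsewhere. Its remaining isoforms differed from library to library within a type: isoform 15762 took 96.4% of microglia library 1 and isoform 15761 took 92% of microglia library 2 (adjusted p = 0.0377, 1 of the 9 fits).

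Of 41 listed SR proteins and hnRNPs 29 were tested and 3 called (10.3%), and of 28 tissue splicing regulators 7 were tested and 1 called (14.3%), against 5.8% of all genes tested. Genes of these families are known to control their own output through transcripts with retained introns or with exons that trigger decay. Srsf7 isoform 8258, an NIC structure with intron retention, took 29.7% ± 10.3 in astrocytes and 31.4% ± 2.57 in neurons and 0% in microglia, where the full-splice match 8269 took 47.5%, 48.6% and 45.5% (edgeR adjusted p = 0.0201, 5 of the 9 fits). Astrocyte library 1 resembled microglia in isoform 8269, at 37.7% against 2.48% and 3.2% in libraries 2 and 3.

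In Srsf5 the full-splice match 4104 passed and the intron-retaining isoforms did not (isoform adjusted p by edgeR of 0.0302 for 4104, 0.407 for 4102 and 0.0979 for 4107). Isoforms 4102 and 4107 took 46.1% ± 0.483 and 24% ± 3.26 in astrocytes, 43.8% ± 0.797 and 19.7% ± 5.83 in neurons and 31.7% ± 6.15 and 2.81% ± 2.47 in microglia, and isoform 4104 took 14.5% ± 3.49, 19.5% ± 1.69 and 53.4% ± 3.47 in the same order (gene-level edgeR adjusted p = 0.0497, 0 of the 9 fits). The calls of Srsf7, Srsf5 and Hnrnpa2b1 were lost when intron-retaining isoforms were left out (adjusted p = 0.484, 0.0774 and 0.0707 by edgeR), as were those of Eif4g2, Stxbp2, Dnm1l and Chl1 among the genes above and below. Hnrnpa2b1 had 3 intron-retaining isoforms, 14787, 14798 and 14801, of which 14787 took 9.92% ± 1.69 in astrocytes, 13.7% ± 2.01 in neurons and 0% in microglia (adjusted p = 0.0318, 1 of the 9 fits). Ptbp2, the neuronal polypyrimidine tract-binding protein, was measured in astrocytes and neurons. Isoform 11979 took 100%, 92% and 75% in neurons and 5.26%, 0% and 0% in astrocytes, where isoform 11980 led (76.9% ± 14.8; adjusted p = 0.0491, 0 of the 9 fits).

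Of 27 listed translation genes 16 were tested and 3 called (18.8%, against 5.8% of all genes tested), and the median difference over the 16 was 15.04 points, against 21.5. The ribosomal protein gene Rpl13a carried isoform 16036 at 100% in every microglia library, 92.1% ± 1.81 in astrocytes and 83.4%, 75.2% and 80.6% in neurons (edgeR adjusted p = 0.0258, 2 of the 9 fits). Rps6, also a ribosomal protein, carried isoform 12548 at 100% in every microglia library, 95.4% ± 2.89 in astrocytes and 87.4% ± 1.55 in neurons (adjusted p = 0.0322, 1 of the 9 fits). Eif4g2, a scaffold of non-canonical translation initiation, carried the intron-retaining isoform 16504 at 15.6% ± 5.6 in microglia, 2.67% ± 0.978 in astrocytes and 0.536% ± 0.465 in neurons (adjusted p = 0.046, 0 of the 9 fits).

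Of 35 genes listed for known cell type-dependent isoforms 26 were tested and 11 called, against 5.8% of all genes tested: Pkm, Tpm3, Myl6, Aplp2, App, Cltb, Clta, Gnas, Cd47, Dnm1l and Tpm1. Snap25, Actn1, Cald1, H2az1, Eno1, Map4, Rbfox2, Qk and Tra2b did not meet the rules for a test. The remaining 15 were tested and not called, with adjusted p-values by edgeR from 0.0594 for Ncam1 to 0.968 for Ptbp1 and, among those named here, largest differences from 9.32 points for Gfap to 75 points for Rtn4. Srsf3, Nrcam, Kif1b, Macroh2a1 and Dnm2 lay in between, at 12.5, 17.4, 26, 34.2 and 53.3 points. Bin1, a membrane-curving amphiphysin, carried isoform 54905 at 59.1%, 67.6% and 35.3% in neurons and at 0% in all glial libraries. Ank2, the neuronal ankyrin-B, carried isoform 56547, an incomplete-splice match, at 74.7%, 66.9% and 29.3% in neurons and 0% in astrocytes. The microtubule protein gene Mapt carried isoform 3301 at 28.2%, 38.7% and 41.2% in neurons and 12.5%, 23.7% and 6.67% in astrocytes, without overlap. Rtn4, the reticulon gene of the growth inhibitor Nogo, carried isoform 2287, an incomplete-splice match, at 96.4%, 62% and 76.4% in astrocytes, 22.7%, 0% and 28.6% in microglia and 8.7%, 1.2% and 0% in neurons. The adhesion gene Ncam1 carried isoform 18376 at 34%, 49.2% and 65% in neurons and 15%, 0% and 15.2% in astrocytes, and the calcium-dependent kinase gene Camk2g carried isoform 5580 at 39.7%, 44.4% and 35.2% in astrocytes and 6.82%, 8.16% and 0% in neurons, both without overlap. Gfap, the intermediate filament of astrocytes, was led everywhere by isoform 3309, from 83.6% to 100% over the 9 libraries. The myelin gene Mbp carried isoform 8914 at 12.2%, 17.8% and 11.8% in astrocytes and 25.6%, 33.3% and 22.2% in neurons. The oligodendrocyte markers of the astrocyte libraries stand beside this, and their part was not tested.

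The isoforms that differed most were annotated structures for the most part. The isoform with the largest difference was a full-splice match in 131 of the 152 called genes (86.2%) and in 78% of all genes tested, an NIC isoform in 11 (7.24%, against 10.5%), an NNC isoform in 7 (4.61%, against 3.62%) and an incomplete-splice match in 3 (1.97%, against 7.86%). Of the 131 full-splice matches 50 had reference ends, 36 another 5′ end, 26 another 3′ end and 18 both. An intron-retaining isoform led the difference in 5 called genes (3.29%, against 4% of those tested).

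The leading isoform of a gene took the largest share in microglia, a smaller share in astrocytes and the smallest in neurons. Over the 1529 genes measured in all 3 types the median share of a library's leading isoform was 80.8%, 81.1% and 80.3% in astrocytes, 88.2%, 86.7% and 86.8% in microglia and 77.3%, 78.6% and 76.3% in neurons. The types did not overlap, and the highest and lowest means differed by 9.84 points (exact two-sided permutation test, p = 0.00357, the smallest that 3 groups of 3 libraries can give). Genes with an isoform read in 1 replicate only, given above, were also fewest in microglia libraries and most numerous in neuron libraries. Their part in these shares was not tested. Full-splice matches took 81.9% ± 0.696 of the reads of tested genes in astrocytes, 88.1% ± 0.62 in microglia and 77.1% ± 1.97 in neurons, and incomplete-splice matches took 5.3% ± 0.276, 3.52% ± 0.135 and 7.45% ± 1.25. NIC isoforms took 8.44% ± 0.529, 5.48% ± 0.455 and 10.7% ± 0.474. Each of these 3 shares had an adjusted permutation p of 0.00595 over the 5 categories.

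Intron-retaining isoforms took 3.82% ± 0.307 in astrocytes, 1.93% ± 0.337 in microglia and 4.54% ± 0.661 in neurons (exact permutation p = 0.0107, adjusted 0.0134), and microglia lay below all other libraries. NNC isoforms took 4.4% ± 0.162, 2.89% ± 0.596 and 4.67% ± 0.335 (exact permutation p = 0.0143, adjusted 0.0143), a difference that no longer passed without astrocyte library 2 or without neuron library 3 (1.77 and 1.58 points between the highest and lowest mean). Over all genes of the table the range between means was smaller, at 5.62 points against 10.96 for full-splice matches, 2.65 against 3.93 for incomplete-splice matches and 2.36 against 5.26 for NIC isoforms, each with a permutation p of 0.00357. The permutation p there was 0.0536 for intron-retaining and 0.05 for NNC isoforms.

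**Figure D4:**
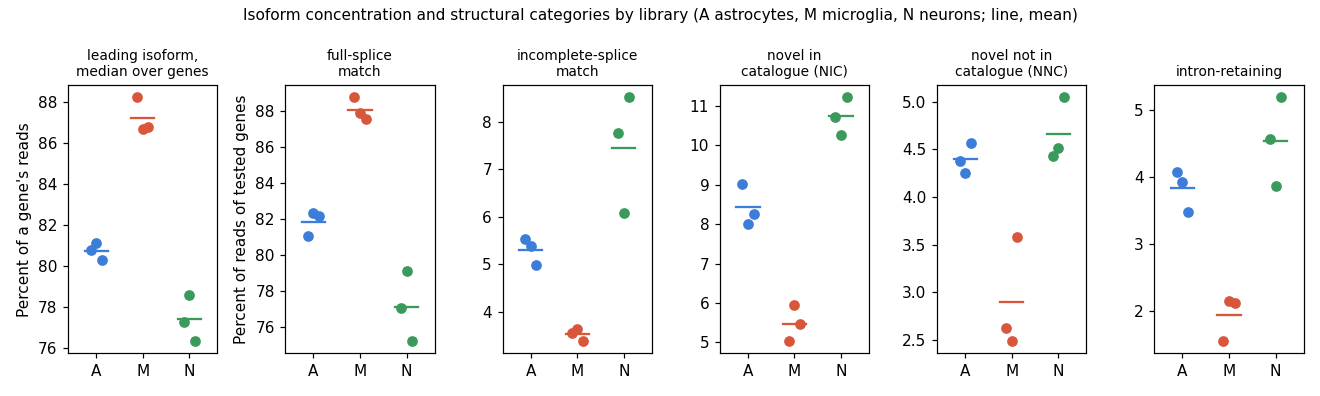
Median share of the leading isoform over genes (left panel, percent of a gene's reads) and share of each structural category in the reads of tested genes (other panels, percent), with 1 point per library and a line at the mean of 3; vertical axes do not start at 0. Microglia lie highest for the leading isoform and for full-splice matches and lowest for the other categories, and neurons lie at the opposite end by their means.

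The sEVs, sequenced in another pool, give a second set of libraries for the same isoforms. Of the 152 called genes 114 had reads in every library of both matching sEV groups at the same minimum of 5. The sEV difference had the sign of the cell difference in 97 of these, the opposite sign in 14 and was 0 in 3. The sEV libraries separated without overlap in the direction of the cells in 60 genes and in the opposite direction in 0. Counts of sign and of overlap in sEVs were not made for genes that were not called. No share over all genes tested therefore stands beside them. Capzb isoform 13133 took 20.3% ± 7.1 in astrocyte sEVs, 94.8% ± 1.5 in microglia sEVs and 60% ± 20 in neuron sEVs, and Myl6 isoform 2043 took 20.5% ± 2.2, 91.8% ± 1.1 and 45.4% ± 6.2, in the order of the cells. Psap isoform 38079 was at 94.3% ± 2.9 in microglia sEVs and 0% in both other sEV groups.

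Beside the 97 genes that kept the sign, several large cell differences were small or opposite in the sEVs, and Pkm was 1 example. Others were Atpif1 (96.5 points in cells and 6 in sEVs), Brd3 (94.6 and -9.67) and Syngr1 (92.6 and -0.302). Atpif1 isoform 40695 took 0%, 13.7% and 95.2% in the microglia sEV libraries and 0%, 0% and 97.5% in those of neurons. Pkm isoform 18517 took 98.2% ± 3.1 in astrocyte sEVs, 90.3% ± 8.3 in microglia sEVs and 82.6% ± 5.8 in neuron sEVs. In the cells it took 98.2%, 99.1% and 3.58%. The neuronal isoform 59567 had 0, 0 and 2 reads in the neuron sEV libraries, which held 286, 324 and 473 Pkm reads, and 201 reads in microglia sEV library 3. The sequencing pool differs between cells and sEVs, so fraction and pool cannot be told apart in this contrast.

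**Figure D5:**
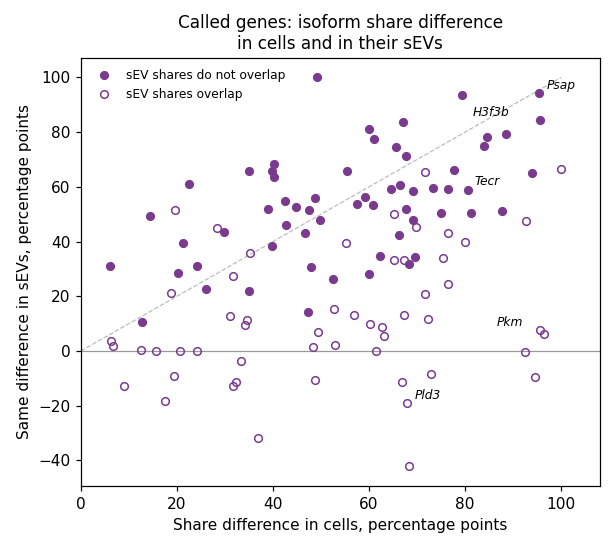
Difference in the share of the isoform with the largest difference between the same 2 cell types, in cells (horizontal) and in sEVs (vertical), in percentage points, for the 114 called genes measured in both; filled points have sEV libraries that do not overlap, and the dashed line marks equal differences. Of the points 97 lie above 0, and Pkm lies at 95.5 points in cells and 7.71 in sEVs.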

How the data were processed

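Per the labels' protocols, polyadenylated RNA of 9 cell libraries and 9 sEV libraries was converted to cDNA, reamplified and sequenced on a PacBio Sequel II. The submitters' processing notes name the mouse build GRCm39 and the aligner minimap2. For the isoform caller, the annotation and all versions, the sources used here give nothing. The authors deposited raw read counts per isoform with gene symbol, structural category and subcategory. Reads carry no molecular identifiers, so limits from 0 counts (3 reads) cover counting error only.

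Shares were computed as percent of a gene's reads per library. Usage was tested with edgeR 4.0.16 in R 4.3.3: for each isoform its reads and the gene's other reads entered 1 quasi-likelihood fit over the 9 cell libraries with a term per library and isoform-by-group terms. Isoform p-values were combined by Simes per gene and adjusted by Benjamini-Hochberg over all genes tested, with pairs of cell types as contrasts of the same fit. Library summaries used exact permutation tests. The scripts were tested on simulated data. Alternatives were no filter on isoforms, 20 gene reads, leaving out incomplete-splice or intron-retaining isoforms, a replicate block, a quasi-binomial model (limma 3.58.1), DESeq2 1.42.0, diffSpliceDGE and leaving out each library. Leaving out genes with an isoform read in 1 replicate only was added after seeing the data.

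The comparison, the gene lists and the naming rule were chosen with earlier results of these data known. Named genes were the 15 called genes with the largest share difference, with at least 20 gene reads in every measured library and no overlap, the 4 largest per cell type among isoforms above or below both other types, all tested genes of a list known for cell type-dependent isoforms, and up to 4 called members of each gene list; a few of these are not reported here. Deviations of same-numbered libraries from their group means correlated at -0.0992 to 0.0341, and those of other pairs at -0.0858 to 0.114. These values cannot show whether libraries of the same number shared a preparation, which the labels do not say.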

Additional observations from a re-analysis of the deposited data

How the results depend on the processing

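Every share difference of a called named gene kept its sign in each alternative that gave one. Most of these signs could not change, as given above, so they say little about robustness. Counts are ordered as joint, neurons against astrocytes, microglia against astrocytes, microglia against neurons, and switches of the leading isoform. They were 152, 20, 123, 272 and 90. With no filter on isoforms they were 7, 2, 10, 42 and 7. With the replicate number as a block they were 29, 1, 12, 53 and 23. The labels do not say whether the numbers pair the libraries. The quasi-binomial model gave 617, 287, 301 and 488 for the tests, and DESeq2 gave 718 jointly. Neurons against astrocytes moved to 46 with 20 gene reads per library, 33 without incomplete-splice matches, and 91 and 97 with diffSpliceDGE under TMM and DESeq2 size factors. Without genes with an isoform read in 1 replicate only, an alternative chosen after seeing the data, the 5 counts were 267, 78, 165, 312 and 110. Leaving out 1 library gave 36 to 68, 1 to 18, 15 to 89, 122 to 217 and 31 to 52. The cause of these shifts was not tested, other than that fewer libraries enter the last. Over all genes of the table the range between means was 0.685 points for intron-retaining and 0.59 points for NNC isoforms, past no threshold. Within the tested genes the NNC range was 1.77 points, and it ran from 1.57 to 2.11 points without 1 library. Called genes were fewest at low depth: 3 and 8 of the 152 came from the lower quartiles of reads. Whether depth itself set the calls was not tested.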

Other observations

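Of the 20 genes called for neurons against astrocytes, some fell outside the naming rule and were chosen after their values were seen. Syngr1, a synaptic vesicle protein, carried isoform 6301 at 94.8%, 92.1% and 86.7% in neurons, 6.25%, 0% and 0% in astrocytes and 0% in microglia (edgeR adjusted p = 0.0401 for the pair). Shisa5, a membrane protein of the endoplasmic reticulum, carried isoform 19013 at 79.9%, 78.5% and 78.4% in neurons and 21.9%, 25.4% and 31.5% in astrocytes. Gyg, the glycogenin that primes glycogen, carried isoform 56213 at 59.4%, 59.5% and 60.8% in neurons and 0% in glia. Ntm, a cell adhesion protein of the IgLON family, carried the NIC isoform 18186 at 38%, 49.2% and 59.5% in astrocytes and 0.357%, 0% and 0% in neurons. Tspan7 was called on a small difference: its NNC isoform 19219 took 5.12%, 6.19% and 3.78% in astrocytes and 0% in neurons and microglia.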
